A study of Pimephales promelas with 28 samples.

Results

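The comparison concerns liver of female fathead minnows (Pimephales promelas), labelled as sexually regressed, after 72 h with phenanthrene or without any agent. Its members were found by their labels alone: 9 of the 28 arrays of the series carry the 72 h time point, 4 with the agent phenanthrene at 29 ng/L and 5 with no agent at 0 ng/L. Total RNA extracted with Trizol was labelled with Cy3 and hybridised to one-colour Agilent arrays of 15208 probes. The other 19 arrays, 9 of the 24 h and 10 of the 48 h time point, enter below to estimate the spread and to set the 72 h effect against the earlier ones. They also share in the choice of the tested probes and in the fits with slide as a block. The labels give no age, and they do not say whether an array held 1 fish or a pool, so each p-value is a statement about array-to-array spread, which may be partly technical.

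Phenanthrene is a polycyclic aromatic hydrocarbon of crude oil and combustion products, and the fathead minnow is a small freshwater fish used widely in toxicology. In fish liver, many polycyclic aromatic hydrocarbons bind the aryl hydrocarbon receptor and raise cytochrome P450 enzymes of the CYP1 family, which oxidise them; phenanthrene is known as a weak activator of that receptor. The liver of a breeding female fish also makes the egg-yolk precursor vitellogenin under oestrogen, and a regressed female lies outside that state. None of these genes could be followed here by name. The probes carry identifiers of expressed-sequence contigs, gi numbers or clones, 0 of 15208 matched the reference gene table, and no probe sequence was given, so the liver identity of the samples was not checked against marker genes and transcripts are described by probe.

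Exposed replicate 4 stood apart from the other 8 arrays. Its bright-corner control spots read 19.00 in log2 signal, against 10.88 to 11.13 on the other exposed arrays and 10.07 to 11.85 on the controls. Its 75th percentile of signal, 1253 units, was the highest of the 9, where the controls ran from 134.5 to 613.9 and the other exposed arrays from 213.8 to 342.7. It had 498 spots marked as outliers, against at most 12 on any other array at 72 h, and 8865 probes well above background, against 9553 to 11735. Over the 10933 tested probes without an outlier spot on any of the 28 arrays, it correlated with the others at 0.817 to 0.858. The other 8 arrays correlated among themselves at 0.860 to 0.945. Control replicate 3 was the next least alike. Without it as well, the remaining 7 arrays correlated at 0.902 to 0.945.

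**Figure D1:**
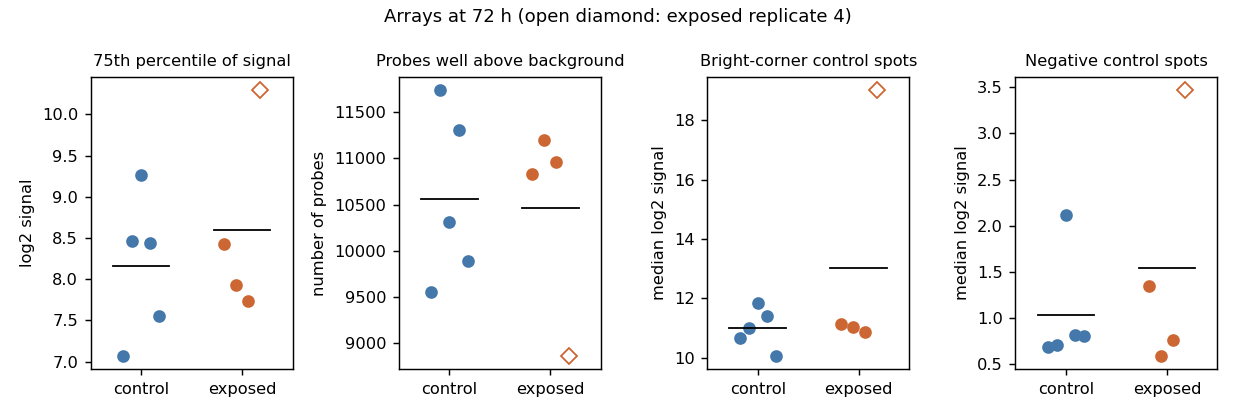
Each panel plots 1 measure of the 9 arrays at 72 h, with control arrays in blue, exposed arrays in orange, exposed replicate 4 as an open diamond and the group mean as a line. One panel counts probes well above background and the others are in log2 signal units; exposed replicate 4 is the lowest array in the probe counts (8865) and the highest in the other panels (19.00 for the bright-corner spots).

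The levels of transcripts set the same array apart. Exposed replicate 4 lay over 1 log2 unit above all other 8 arrays at 953 probes and over 1 unit below all of them at 2059. The corresponding numbers on the other 8 arrays ran from 25 to 280. Relative to the mean of the other exposed arrays, its median probe was -1.30 log2 units away in the dimmest quartile of probes and 0.25 in the brightest. The deviation of each array from the rest of its group was also compared across the 10933 probes, which are not independent replicates. The deviations of exposed replicate 4 correlated at 0.44 with those of exposed 48 h replicate 1, the only other array with raised bright-corner spots (17.87), and at -0.26 to 0.22 with those of the 23 other arrays outside its own group. Both arrays were processed like the others here, and the part of the raised spots in the results was not tested. The counts of the 72 h comparison are given with and without exposed replicate 4.

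**Figure D2:**
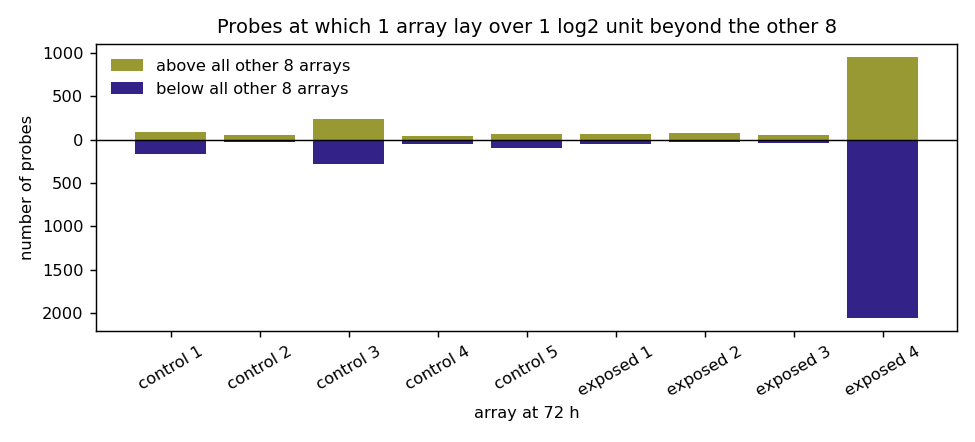
Bars show, for each array at 72 h, the number of probes at which it lay over 1 log2 unit above (upward) or below (downward) every one of the other 8 arrays, among 10933 probes. The bars of exposed replicate 4 reach 953 and 2059, and no other bar exceeds 280.

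No transcript differed between exposed and control liver at 72 h past the threshold. Levels were tested as log2 signal relative to each array's 75th percentile in 1 model over all 28 arrays, and 0 of 11492 tested probes (0%) passed 0.05 after Benjamini-Hochberg adjustment in limma. The lowest adjusted p of any probe was 0.893. Before adjustment 605 probes (5.26%) had a p under 0.05, a share close to the threshold itself. Of them 236 (2.05%) were higher and 369 (3.21%) lower in exposed liver. The median difference of all tested probes was -0.05 log2 units, or 0.05 without exposed replicate 4. Of the 11492 probes 1365 differed by more than 2-fold either way, or 997 without that array.

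The count and the probes behind it changed when exposed replicate 4 was left out. Without it the unadjusted count dropped to 308 (2.68%), with 179 higher and 129 lower, and limma passed 0 probes, all with an adjusted p that rounds to 1.0. Of the 605 probes 175 remained among the 308, which is 28.9% of the first set and 56.8% of the second, all in the same direction. The like overlap on leaving out other arrays was not computed. Replicate 4 was the highest or lowest exposed array at 508 of 591 unadjusted probes (86%) measured on all 4, near its 80.2% over all probes. Leaving out any other exposed array raised the count instead, to 840, 849 and 923 without replicates 1, 2 and 3, while leaving out single controls gave 453 to 600. A fit to the 8 arrays alone, chosen after seeing the data, gave 527 unadjusted probes, 332 higher and 195 lower, and 0 past the adjusted threshold in limma, with a smallest adjusted p of 0.233. The matching fit to the 9 arrays at 72 h alone gave 422, 206 higher and 216 lower, so there the count rose without replicate 4. Thus most unadjusted probes were lower in the fit to all arrays and higher without replicate 4. With only the 9 arrays the split was near even. The majority was lower also within slide 5, with 246 higher and 417 lower, and higher within slides 1 and 2, with 251 against 83 and 125 against 57.

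**Figure D3:**
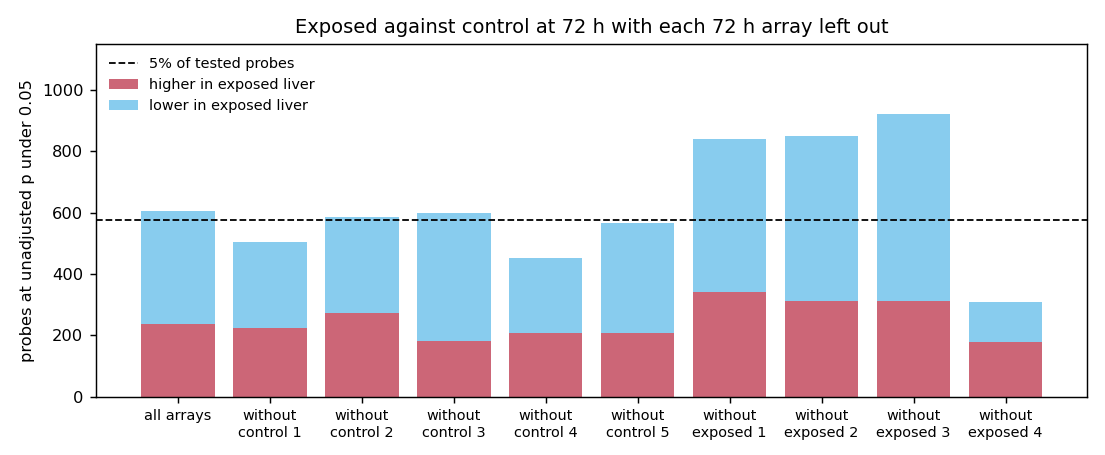
Stacked bars count the probes at an unadjusted p under 0.05 in the 72 h comparison, higher (red) or lower (blue) in exposed liver, with all arrays and with each 72 h array left out in turn; the dashed line marks 5% of the 11492 tested probes. The count is lowest, 308, without exposed replicate 4 and highest, 923, without exposed replicate 3.

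The spread within the exposed group rested on the same array. The median SD over probes was 0.59 log2 units among the 5 controls and 0.82 among the 4 exposed arrays, and it was 0.42 among the 3 exposed arrays other than replicate 4. In the dimmest quartile of probes these medians were 0.85, 1.08 and 0.57, and in the brightest quartile 0.44, 0.67 and 0.34. The share of probes at an unadjusted p under 0.05 was 5.05% in the dimmest quartile and 4.32% in the brightest, or 3.47% and 1.79% without replicate 4. Replicate 4 was the highest or the lowest of the 4 exposed arrays at 80.2% of the probes measured on all of them, against 37.0% to 43.1% for the other 3.

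The lower probe with the smallest unadjusted p was named by the fits with and without replicate 4. Its direction in both follows from that choice. Its levels at 72 h are given as a description, as are those of the named probes below. UF_Ppr_AF_104486 (contig FJU.4829.C1) stood at -2.41, -2.0, -2.51, -5.56 and -1.77 log2 units relative to the 75th percentile in the 5 controls. The 4 exposed arrays lay at -7.07, -5.89, -6.50 and -6.74, below every control, and replicate 4 was in the middle of them. The probe was well above background on 4 of 5 controls and on 0 of 4 exposed arrays, so the size of its difference is not settled. With each exposed value raised to at least its array's faintest signal well above background, exposed liver was 4.34-fold lower than the mean of the 5 controls. The control not well above background entered at its measured level, so this fold is not a strict lower limit. The fitted difference was -3.70 (SE 0.93), or -3.64 without replicate 4 and -1.07 with normexp, a background model under which differences between dim spots were smaller. The normexp value is smaller than the 4.34-fold given, which holds for processed signals only. Within slides 1, 2 and 5 the fitted difference was -4.66, -3.64 and -2.96. The difference did not pass in limma (adjusted p 0.893).

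UF_Ppr_AF_114809 (contig FJU.4503.C2) was a brighter probe on the lower side. The controls lay at 1.21, 1.06, 1.29, 1.14 and 0.33, and the exposed arrays at -0.72, 0.38, 0.37 and -1.15. Control replicate 5 fell within the range of the exposed arrays, while the other 4 controls were above all of them. The difference was -1.29 (SE 0.34; 95% interval -1.99 to -0.58), and -0.995 without replicate 4. UF_Ppr_AF_115753 (contig FJU.1436.C1) had a like arrangement, with controls at 2.02, 1.86, 1.55, 1.14 and 0.12 and exposed arrays at 0.82, -0.97, 0.52 and -1.48. Its difference was -1.61 (SE 0.44), again with control replicate 5 among the exposed arrays, and -1.21 without replicate 4. Both probes were well above background on all 9 arrays, and with normexp they differed by -1.08 and -1.41.

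On the higher side, UF_Ppr_AM_120399 (contig FJU.10199.C2) was even among the exposed arrays and uneven among the controls. The exposed arrays lay at -3.16, -3.17, -2.62 and -2.98 and the controls at -5.90, -5.20, -7.38, -5.75 and -3.44, so the groups did not overlap. All 4 exposed arrays, but only 2 of 5 controls, read the probe well above background. The difference was 2.55 (SE 0.64), or 2.55 (SE 0.71) without replicate 4, and 0.59 with normexp. A second probe whose identifier names the same contig, UF_Ppr_AF_118693, was well above background on all 9 arrays and differed by 0.20 (SE 0.38), with overlapping groups.

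UF_Ppr_AF_100015 (contig FJU_SB_30.632.C1) was well above background on all 9 arrays. Its controls lay at -0.40, -2.11, -0.30, -1.48 and -0.92 and its exposed arrays at 2.87, 0.36, -0.24 and 2.22. All exposed arrays were above all controls, with exposed replicates 1 and 4 far above and replicate 3 just above the highest control. The difference was 2.34 (SE 0.64), or 2.04 without replicate 4 and 1.99 with normexp. Also bright, UF_Ppr_AF_115025 (contig FJU.6610.C1) lay at -0.39, -0.71, -1.22, -0.73 and -0.76 in controls and at -0.12, 2.22, -0.11 and 0.88 in exposed liver. The groups did not overlap, exposed replicate 2 being the highest, and the difference was 1.48 (SE 0.42). Without exposed replicate 2 it was 0.98, and within slides 1, 2 and 5 it was 0.27, 3.19 and 1.13.

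UF_Ppr_AF_117997 (contig FJU.6610.C2) shares the first number of its identifier with UF_Ppr_AF_115025, and whether both read the same transcript was not tested. It lay between -2.72 and -2.21 in controls and at -1.69, 0.08, -1.45 and -2.52 in the exposed arrays. Its exposed replicate 2 was again the highest, while replicate 4 was within the controls. The difference was 1.03 (SE 0.47), and 1.41 without replicate 4. All of these probes had an adjusted p of 0.893 or more by limma.

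**Figure D4:**
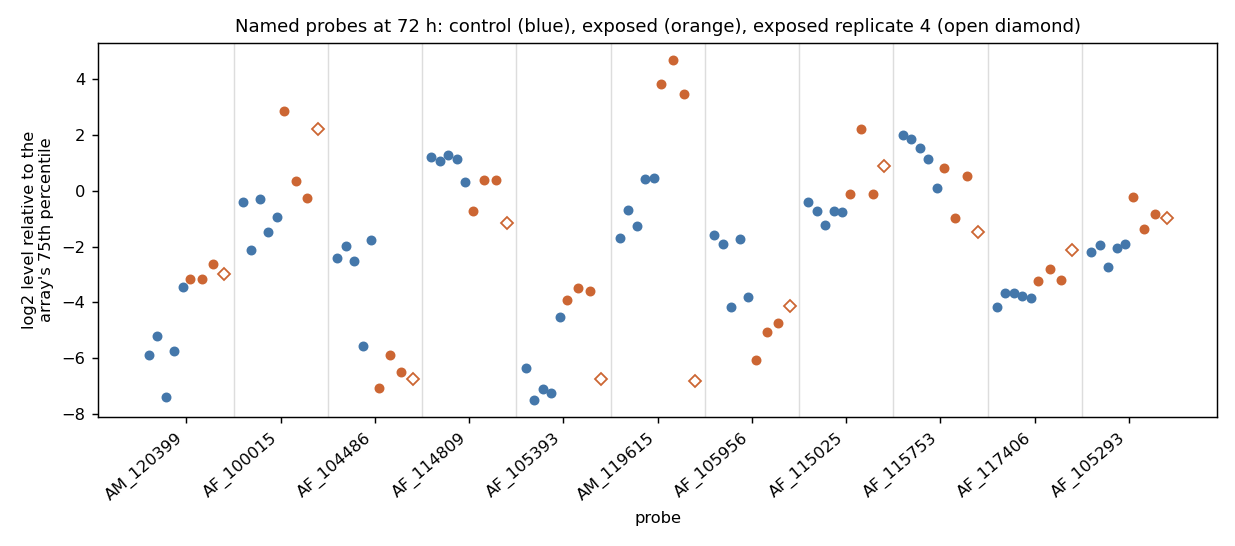
Points give the log2 level of the 11 named probes relative to each array's 75th percentile, with controls in blue, exposed arrays in orange and exposed replicate 4 as an open diamond. Exposed arrays lie above or below all controls at 6 of the probes, against 1.7% of the 10933 tested probes without an outlier spot. The named probes were chosen by unadjusted p in these same data, which favours such separation. Replicate 4 sits far below the other exposed arrays for AF_105393 (-6.75) and AM_119615 (-6.81).

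Apart from UF_Ppr_AF_104486, other probes were named by unadjusted p once replicate 4 was left out. UF_Ppr_AM_119615 (contig FJU.927.C1) lay at -1.68, -0.70, -1.26, 0.43 and 0.44 in the controls and at 3.85, 4.70 and 3.46 in exposed replicates 1, 2 and 3. In replicate 4 it was at -6.81 and not well above background, though every other array at 72 h measured it. The difference was 1.85 (SE 1.63) with all arrays and 4.56 (SE 1.18) without replicate 4. Without exposed replicates 1, 2 and 3 in turn it was 1.0, 0.72 and 1.13. It was 5.53 and 5.68 within slides 1 and 2, and -2.11 within slide 5, which holds replicate 4.

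A second probe of the same contig, UF_Ppr_AF_104891, placed the arrays in the same way. It lay at 4.71, 3.88, 3.32, 3.91 and 5.66 in the controls, at 8.14, 10.71 and 7.97 in exposed replicates 1, 2 and 3, and at -0.58 in replicate 4. On both probes 3 exposed arrays were above all controls and 1 was below all of them. The difference of the second probe was 2.26 (SE 1.60), and 4.64 (SE 1.30) without replicate 4. The transcript also varied widely elsewhere in the series: this probe ran from 2.36 to 7.35 in the 24 h controls, from 2.95 to 10.07 in the 48 h controls and from 1.52 to 7.39 in exposed liver at 48 h. Exposed liver at 24 h was narrower, from 5.26 to 7.36. Its differences at 24 h and 48 h were 1.32 (SE 1.60) and -2.73 (SE 1.51), and no value of either probe passed by limma (adjusted p at 72 h 0.893 and 0.916).

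**Figure D5:**
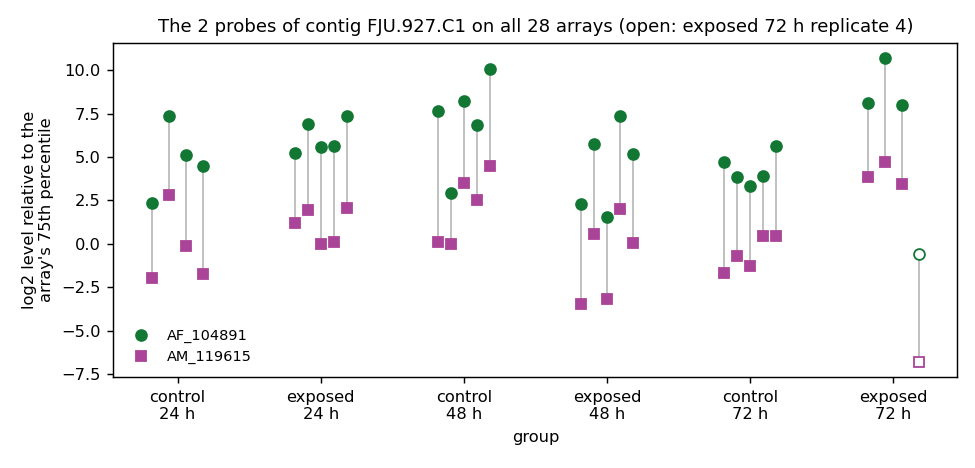
The log2 level relative to each array's 75th percentile is plotted for both probes of contig FJU.927.C1 on the 28 arrays, grouped by agent and time, with a grey line joining the probes of 1 array and open symbols for exposed 72 h replicate 4. Exposed replicates 1, 2 and 3 at 72 h lie above the 72 h controls on both probes and replicate 4 lies below them, at -0.58 and -6.81.

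The other probes named without replicate 4 were dim. UF_Ppr_AF_105393 was well above background on exposed replicates 1, 2 and 3 and on 0 of 5 controls. Its exposed values were -3.93, -3.49, -3.58 and, in replicate 4, -6.75, against -6.36, -7.51, -7.09, -7.25 and -4.54 in controls. On processed signals, exposed liver was at least 2.59-fold higher without replicate 4. With replicate 4, which was not well above background and entered at its measured level, the fold was 1.52, which is not a strict lower limit. With normexp the difference of the probe, fitted with replicate 4 included, was -0.055, too small to give a direction. No normexp fit was made without replicate 4, so this value cannot be set against the 2.59-fold. The offset of 50 added with normexp also by itself shrinks log2 differences between dim spots, so the normexp value cannot test the rise. UF_Ppr_AF_105956 lay at -1.59, -1.92, -4.15, -1.72 and -3.79 in controls and at -6.08, -5.08, -4.75 and -4.13 in exposed liver, so that only replicate 4 overlapped a control. The probe was well above background on all 5 controls and on 2 of 4 exposed arrays. It differed by -2.37 (SE 0.70), by -2.67 (SE 0.77) without replicate 4 and by -0.82 with normexp.

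Probes measured in 1 group and not in the other were few. Of 15208 probes, 7425 were well above background on all 9 arrays and 2004 on none. Well above background on all 5 controls and on 0 of 4 exposed arrays were 2 probes, UF_Ppr_AF_101079 and UF_Ppr_AF_111979, at least 3.61-fold and 2.60-fold lower in exposed liver on processed signals. The reverse held for UF_Ppr_AM_119865, at least 2.56-fold higher, and for UF_Ppr_AF_104901, at least 1.38-fold higher over the 3 exposed arrays left after its outlier spot on replicate 4 was dropped. With normexp the log2 differences of the 4 were smaller than these limits, at -0.81, -0.74, 0.35 and 0.37 in the order named. These 4 were chosen after their values were seen. Without replicate 4 the numbers were 2 and 7, over fewer arrays, where such a pattern is easier to reach.

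The choice of these probes goes far to fix their levels, which are given as a description. UF_Ppr_AF_101079 (contig FJU.4220.C1) lay at -2.55, -4.42, -3.02, -2.58 and -3.0 in controls and at -6.41, -7.36, -5.30 and -5.26 in exposed arrays, replicate 4 being the highest of them. The groups of UF_Ppr_AF_111979 overlapped, since control replicate 2 at -5.07 fell below exposed replicate 4 at -5.05. Over all probes without an outlier spot, the ranges of the groups were separate at 186 of 10933 (1.7%), 92 higher and 94 lower. Without replicate 4 they were separate at 454 (4.15%), 277 higher and 177 lower, in a comparison of fewer arrays, where separation is easier to reach. Of all splits of the arrays into 4 and 5, a share of 0.0079 separates a probe in a given direction. For splits into 3 and 5 that share is 0.018. The counts were not tested against these shares.

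Some contigs were read by a pair of probes, 1 of which carries the suffix ms in its identifier. Both probes of 252 such pairs were tested. Across these pairs the 72 h differences correlated at r = 0.24, or 0.23 without replicate 4, as a description over probes that share arrays. The differences had the same sign in 140 of the 252 pairs, not far from an even split. In 7 pairs both probes differed by more than 2-fold the same way, and the number to expect of unrelated probes was not computed.

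The 72 h effect was set directly against the mean of the effects at 24 h and 48 h, whose control arrays are different ones. In limma 0 of 11492 probes passed (lowest adjusted p 0.999), while 483 (4.2%) were under 0.05 before adjustment, 255 higher and 228 lower. Without exposed replicate 4 there were 479, 343 higher and 136 lower, and scaling to the median gave 152 higher and 387 lower. UF_Ppr_AF_104486, lower at 72 h, differed by 0.70 (SE 0.93) at 24 h and 1.51 (SE 0.87) at 48 h, and its 72 h effect minus the earlier mean was fitted at -4.81 (SE 1.13). That value contains the 72 h difference of a probe not well above background in exposed liver, so its size is not settled. UF_Ppr_AF_115753 differed by 0.52 and 0.48 at the earlier times, with all 5 exposed arrays above the control mean at each, and all 4 below it at 72 h. The difference of effects was -2.11 (SE 0.53).

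On the opposite side were 2 probes without overlap at 72 h. UF_Ppr_AF_117406 (contig FJU.6623.C2) lay at -4.18, -3.66, -3.65, -3.78 and -3.83 in controls and at -3.23, -2.81, -3.21 and -2.13 in exposed liver, a difference of 0.98 (SE 0.40) against -0.75 and -0.69 at 24 h and 48 h. With normexp the 72 h difference was 0.31. UF_Ppr_AF_105293 (contig FJU.3539.C2) lay at -2.19, -1.95, -2.73, -2.07 and -1.89 in controls and at -0.21, -1.38, -0.82 and -0.96 in exposed liver. Its 72 h difference was 1.32 (SE 0.41), or 0.83 with normexp, after -0.24 at 24 h and -0.62 at 48 h. Opposite directions at these times follow from choosing such probes by the difference of effects. A probe of the same cluster, UF_Ppr_AF_118477, differed by 0.08 (SE 0.25) at 72 h.

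The 9 arrays lay on 3 slides. With slide as a fixed block 0 of 11492 probes passed in limma and 519 were at an unadjusted p under 0.05. Within slide 5, which holds exposed replicates 3 and 4 and control replicates 4 and 5, 0 of 11492 passed and 663 were unadjusted. The fits within slides 1 and 2 tested 11480 and 11490 probes. Slide 2, with exposed replicate 2 and control replicates 2 and 3, gave 0 and 182, and slide 1, a single exposed and a single control array, gave 1 and 334, each lone array being assumed to vary like the other groups. The probe that passed on slide 1, UF_Ppr_AF_110199, was at -5.93 in control replicate 1 and between -1.14 and 0.96 on the other 8 arrays, so it rested on that control.

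No array-level measure passed its test between the agents. Over 6 measures, the smallest p was 0.0556 by a two-sided exact permutation test, for the number of outlier spots (2 to 498 in exposed and 0 to 8 in control arrays), with a Benjamini-Hochberg adjusted value of 0.238. Spike-in control spots stood at 8.04 ± 0.07 log2 units (SD, n = 4) in exposed and 7.59 ± 0.40 (SD, n = 5) in control arrays, with p = 0.0794 by the same exact test (adjusted 0.238).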

How the data were processed

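Per the file headers, the authors scanned one-colour Agilent arrays with Feature Extraction 10.7.1.1, whose processed signal is a background-corrected linear intensity. The authors also deposited a table of log2 values, whose normalization the sources used here do not give; it served as an alternative, and 1 of its columns belonged to no sample. The log2 processed intensity of each array was reduced by its 75th percentile over 15208 probes. Outlier spots (779 over all arrays) were left out. A probe was tested if 3 or more arrays of any group read it well above background, which left 11492. The 6 group means were fitted with limma 3.58.1 in R 4.3.3 (22 residual degrees of freedom), with two-sided tests and Benjamini-Hochberg adjustment at 0.05. On simulated data the script was checked only for returning the mean size of added differences. That check does not show how many true differences would pass the threshold.

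Replicates were numbered in accession order and pair no samples; exposed replicate 4 is the array titled Low74. The probes named are, on each side, the 2 of lowest unadjusted p in the 72 h comparison, in the same without exposed replicate 4, in the same among probes of at least median level, and in the difference of effects. The planned gene and cell type marker lists matched 0 probes and were not used. The array comparison, lists and rules were chosen with earlier results of these data known. The number of arrays limits the precision. A fold for a probe not well above background in 1 group is a lower limit on processed signals only. The fold is not a strict limit where an array of the other group was also not well above background. It is taken from the faintest signal that each array read well above background.

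Alternatives were quantile and median scaling, normexp (offset 50; run on median spot signals, as mean signals were not used here), other filters, slide as a fixed or random block, effects within slides, array weights, another prior, the authors' table, outlier spots kept, fits to fewer arrays (the fit to the 8 arrays at 72 h other than exposed replicate 4 was added after seeing the data), and each 72 h array left out.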

Additional observations from a re-analysis of the deposited data

Results flagged for a closer look

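Exposed replicate 4 was far from the other exposed arrays at 72 h in its bright-corner control spots (19.00 log2 units, also above the highest control), its outlier spots (498) and its probes well above background (8865). It was also off from them at UF_Ppr_AF_105393 (-6.75) and UF_Ppr_AM_119615 (-6.81), which were named by the fit without it, so that their standing off follows in part from that choice. Among the controls, 1 array stood off in its negative control spots (2.12 log2 units), 1 at UF_Ppr_AF_104486 (-5.56) and 1 at UF_Ppr_AF_114809 (0.33). These 8 came from 34 groups of values examined, and chance flags about 1 in 20 where groups are not chosen by their values, which does not hold for the named probes.

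At 3 of the 11 named probes every exposed array at 72 h lay on one side of the control mean and every exposed array of an earlier time on the other. UF_Ppr_AF_114809 differed by 0.60 at 24 h, UF_Ppr_AF_115753 by 0.52 at 24 h and 0.48 at 48 h, and UF_Ppr_AF_117406 by -0.75 at 24 h, each against the opposite direction at 72 h. The last 2 probes were chosen by the difference of effects, which favours opposite directions. UF_Ppr_AF_114809 was chosen by its unadjusted p at 72 h, so its side at 72 h follows in part from that choice. The share of all tested probes with such a pattern was not computed. The difference between single times was not tested, and against the mean of both earlier times each of the 3 probes had an adjusted p of 0.999 by limma.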

How the results depend on the processing

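The count of 0 probes past the adjusted threshold at 72 h held in limma under every alternative run except within slide 1, where 1 passed; over the others the smallest adjusted p ran from 0.138 (array weights) to 1.0. For the difference of effects 0 passed in limma under every alternative run. Before adjustment the counts under 0.05 ran from 249 of 5746 (brighter probes only) to 999 of 11492 (array weights). The unadjusted count of 605 became 335 among the brighter probes, 360 without the 3 arrays of doubtful quality (exposed 24 h replicate 3, exposed 48 h replicate 1 and exposed 72 h replicate 4), 334 within slide 1 and 182 within slide 2. The 335 brighter probes were out of 5746 tested, against 605 out of 11492 in the main fit. Their lower count thus reflects the smaller set tested and is not a lower share. With 1 array at 72 h left out of the fit over all times, the unadjusted count ran from 308 (exposed replicate 4) to 923 (exposed replicate 3). In fits to the 72 h arrays alone it rose from 422 to 527 without exposed replicate 4. The split of 236 higher and 369 lower was 189 and 280 with normexp, 293 and 487 in the authors' deposited table, 432 and 473 with array weights and 206 and 216 with only the 9 arrays. It turned to 210 and 150 without the 3 doubtful arrays, and to 251 and 83 and 125 and 57 within slides 1 and 2. Without exposed replicate 4, the groups did not overlap at 454 probes (4.15%) in place of 186 (1.7%), and 7 probes in place of 2 were measured in exposed liver only. Both patterns are easier to reach with fewer arrays. The median exposed SD was then 0.42. The same step reversed the exposed minus control difference of 3 array measures, none past its test: the 75th percentile to -0.13 log2 units, the probes well above background to 438.6 and the negative controls to -0.13. Among the 11 named probes, none of which passed, 2 changed sign under an alternative. UF_Ppr_AM_119615 went to -2.11 within slide 5, and UF_Ppr_AF_105393 to -0.055 with normexp, too small a value to give a direction. The causes were not tested. No paired analysis was possible because the labels give no shared replicate numbers. Dim probes limit the sizes given, since their log2 differences shrink under normexp, whose offset of 50 by itself shrinks them.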
